A study of Mus musculus with 20 samples.

Results

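The 9 genes described here are 3 ephrins (Efnb1, Efnb2 and Efna1), 5 Eph receptors (Ephb2, Ephb3, Ephb4, Epha2 and Epha4) and the nuclear receptor gene Nr2f2, chosen by name from the 55866 genes of the count table. All 9 were found in it, and all 9 passed the filter on low counts in each comparison. The libraries came from RiboTagEC mice, female C57BL/6J mice in which Rpl22 carries a hemagglutinin (HA) tag under control of Cdh5CreERT2, a Cre driven by the promoter of the EC cadherin gene Cdh5, so that ribosomes of endothelial cells (EC) could be pulled down with anti-HA antibodies. Every mouse, control mice included, carried these alleles, received 75 mg/kg of tamoxifen for 5 days at 3 weeks of age, and was implanted at 8 weeks with Py8119, a murine breast carcinoma line, in the mammary fat pad. Mice then received 25 mg/kg of control mouse IgG or of 6-3-A6, an antibody that blocks Notch4, for 10 days, and 5 tumors per treatment each gave an input library from the whole homogenate and an immunoprecipitated (IP) library of tagged ribosomes. Treatment began at 30 mm3 of tumor volume according to the sample protocols and at 50 mm3 according to the design text. The study itself compared 3 control IgG IP libraries (replicates 2, 4 and 5) with 3 6-3-A6 IP libraries (replicates 1, 3 and 4), called the kept libraries below. It removed the other IP libraries as outliers in a principal component analysis, and reports that the treatments then separated more clearly. The kept libraries were thus chosen by their expression, and p-values and overlaps in them do not account for that choice.

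Ephrins are ligands fixed in the cell membrane and Eph receptors are the tyrosine kinases that bind them on a neighboring cell, with signaling in both directions. In blood vessels Efnb2 is known as a marker of arterial EC and its receptor Ephb4 as a marker of venous EC. Nr2f2 (COUP-TFII) is a transcription factor known for venous identity, where it restrains Notch signaling, and it is also made by many stromal cells. Efna1 is an ephrin induced by inflammatory cytokines in EC, and Epha2 is its main receptor there and is also common on carcinoma cells.

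Counts on genes totaled 11881214 to 26728205 per library (median 16942643). Levels are given in CPM, the read count scaled to the library's total after TMM scaling over all 20 libraries. The sample description of the 6-3-A6 libraries names the opposite fraction from their titles, and the titles were followed. In the libraries titled IP, 17 of 17 EC markers were called higher than in input. Their summed level was 1593 to 7350 CPM in control IgG IP and 1257 to 6487 CPM in 6-3-A6 IP, against 202 to 322 CPM in all input libraries. The input library of 6-3-A6 tumor 4 stood apart, with a TMM factor of 0.680 against 0.894 to 1.12 in the other 19 libraries and a median correlation of 0.888 with the other input libraries, where those had 0.956 to 0.979. For the 9 genes and the gene lists, the comparisons of IP with input are also given without it. In whole tissue, fewer cells of a type and less RNA per cell cannot be told apart.

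In the count table Efna1 lay on chromosome 3 (89179040 to 89188449, minus strand), Efnb2 on chromosome 8 (8667434 to 8711242, minus strand) and Efnb1 on chromosome X (98179736 to 98192597, plus strand). Ephb4 lay on chromosome 5 (137348371 to 137376931, plus strand), Ephb2 and Epha2 on chromosome 4 (136374850 to 136563299, minus strand, and 141028551 to 141056695, plus strand), Ephb3 on chromosome 16 (21023505 to 21042055, plus strand) and Epha4 on chromosome 1 (77343822 to 77491725, minus strand). Nr2f2 lay on chromosome 7 (70001692 to 70016483, minus strand). The starts of 0 of 9 genes were those of GRCm38, and the coordinates were taken as GRCm39. For 9 of 9 genes the counted length was the whole span from start to end, introns and untranslated regions included. The strand setting of the counting is not given in the sources used here, so reads of overlapping genes on opposite strands cannot be told apart. Ephb4 shared 33 bases with Zan on the other strand (408 counts over all libraries, against 30661 for Ephb4), and Nr2f2 shared 1826 bases with the antisense gene B130024G19Rik (562 counts, against 50105 for Nr2f2). The genes inside Efnb2 and Epha4 on the same strand had 0 counts.

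The 250 bases before the RefSeq start are shown for Efna1, Ephb4 and Efnb2, whose levels were correlated with one another over the IP libraries by Pearson's r, and for Nr2f2, which had no such correlation. Sequences and coordinates are those of RefSeq on GRCm38.p6, read 5′ to 3′ on the gene's strand. All 9 genes had an entry, and for Efna1, which has 2 RefSeq starts, the one nearer to the GENCODE start is shown. Capitals mark GGAA or its complement TTCC, the core bound by ETS factors, a family that includes Erg.
Efna1 (chr3:89280952-89281201, minus strand): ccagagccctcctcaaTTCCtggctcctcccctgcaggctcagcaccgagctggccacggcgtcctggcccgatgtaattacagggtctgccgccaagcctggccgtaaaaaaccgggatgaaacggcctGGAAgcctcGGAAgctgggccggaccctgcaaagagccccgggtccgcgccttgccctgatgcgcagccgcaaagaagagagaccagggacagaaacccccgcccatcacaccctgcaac
Ephb4 (chr5:137349859-137350108, plus strand): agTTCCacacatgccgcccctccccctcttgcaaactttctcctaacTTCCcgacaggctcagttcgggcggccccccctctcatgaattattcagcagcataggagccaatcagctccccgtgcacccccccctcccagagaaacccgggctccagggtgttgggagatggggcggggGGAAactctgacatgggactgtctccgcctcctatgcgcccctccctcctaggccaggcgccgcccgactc
Efnb2 (chr8:8661243-8661492, minus strand): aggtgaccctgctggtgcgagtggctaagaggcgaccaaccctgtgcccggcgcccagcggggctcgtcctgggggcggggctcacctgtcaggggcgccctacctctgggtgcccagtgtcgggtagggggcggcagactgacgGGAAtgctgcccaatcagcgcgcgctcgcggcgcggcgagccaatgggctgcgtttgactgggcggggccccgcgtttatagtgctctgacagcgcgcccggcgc
Nr2f2 (chr7:70366747-70366996, minus strand): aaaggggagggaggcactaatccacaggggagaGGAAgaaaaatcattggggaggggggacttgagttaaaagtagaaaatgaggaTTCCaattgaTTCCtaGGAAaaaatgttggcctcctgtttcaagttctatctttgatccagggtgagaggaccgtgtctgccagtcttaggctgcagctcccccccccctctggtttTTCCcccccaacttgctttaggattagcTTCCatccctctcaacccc
These windows held 3 (Efna1), 3 (Ephb4), 1 (Efnb2) and 6 (Nr2f2) such cores, and 93.4% of 32851 promoter windows of this length held at least 1, so that its presence sets none of them apart. The RBPJ core of canonical Notch signaling was searched as TGGGAA or TTCCCA, which contains the ETS core. It occurred 2 times before Efnb1 and 1 time before Epha4, in no window shown above, and in 21.6% of all windows. A SOX core (ACAAT or ATTGT) occurred in 0 of the 9 windows and in 27.7% of all windows. A nuclear receptor half-site (AGGTCA or TGACCT) occurred 1 time, before Epha2, and in 14.0% of all windows. The window before Efnb2 was 72.0% G and C, and that before Nr2f2 50.0%.

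Per kilobase of counted length, the level in control IgG IP was highest for Efna1 (11.6 ± 5.42 CPM per kilobase, SD, n = 5), followed by Nr2f2 (8.76 ± 1.12), Efnb2 (5.29 ± 0.695), Ephb4 (3.91 ± 1.22), Epha2 (2.92 ± 0.841), Efnb1 (1.15 ± 0.138), Ephb3 (0.178 ± 0.0653), Epha4 (0.0746 ± 0.0137) and Ephb2 (0.0194 ± 0.00585). The ranges of the 5 libraries overlapped between Efna1 and Nr2f2, between Efnb2 and Ephb4 and between Ephb4 and Epha2, and not between the other neighbors in this order. The same order was found in 6-3-A6 IP. In control IgG input Nr2f2 was first (9.74 ± 2.08 CPM per kilobase, n = 5), above Efna1 (4.64 ± 1.46) and Efnb2 (4.41 ± 0.618). Epha2 (2.60 ± 0.378) stood above Ephb4 (2.13 ± 0.402) there, with overlapping ranges. The order depends on the length used. With the length of the annotated exons in place of the whole span, control IgG IP gave Efna1 (59.5 ± 27.9 CPM per kilobase), Efnb2 (33.8 ± 4.44), Ephb4 (24.1 ± 7.53), Epha2 (17.6 ± 5.06) and Nr2f2 (15.0 ± 1.91), and each of these 5 overlapped its neighbor. Efnb1 (4.29 ± 0.514) lay below all 5, and Epha4, Ephb3 and Ephb2 were again the lowest.

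The comparison of IP with input asks which of these transcripts were on EC ribosomes more than in the tumor as a whole. Of the 9 genes, Efna1 and Ephb4 rose in IP, Ephb2 fell, and the other 6 did not pass the test, Efnb2 and Nr2f2 among them (edgeR quasi-likelihood test over 20 libraries with treatment as a term, Benjamini-Hochberg adjusted p under 0.05). For scale, 40.4% of 14488 genes passed in either direction, 19.6% higher and 20.8% lower in IP. The median log2 fold change was -0.04 over the 9 genes and -0.06 over all genes tested. Libraries of the 2 fractions overlapped for 9 of 9 genes, where 4.8% of all genes did not overlap.

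Among the ligands, Efna1 was at 51.0, 47.3, 60.3, 33.2 and 26.4 CPM in control IgG input (replicates 1 to 5) and at 174, 100.4, 148, 61.6 and 60.4 CPM in the IP of the same tumors. In the 6-3-A6 group it was at 61.5, 33.1, 51.7, 14.2 and 28.4 CPM in input and at 153, 31.4, 109, 132 and 86.3 CPM in IP. IP was above input in 9 of 10 tumors, with 6-3-A6 tumor 2 as the exception. Its log2 fold change was 1.38 (SE 0.28, adjusted p = 0.000609, edgeR). Without the input library that stood apart the log2 fold change was 1.30 (adjusted p = 0.000606).

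Efnb2, the arterial ligand, was at 195, 149, 195, 223 and 205 CPM in control IgG input and at 248, 251, 260, 211 and 189 CPM in control IgG IP. In 6-3-A6 libraries it was at 233, 210.2, 209, 203 and 120.5 CPM in input and at 252, 153, 210.4, 223 and 194 CPM in IP. IP was above input in 7 of 10 tumors, and the fractions overlapped across most of their range. The log2 fold change was 0.17 (SE 0.12, adjusted p = 0.275), with a 95% interval from -0.09 to 0.43. Efnb1, the other B-class ligand, ranged from 4.10 to 26.8 CPM in input (median 14.6) and from 9.04 to 17.2 CPM in IP (median 14.6), and its log2 fold change of -0.04 (SE 0.19) did not pass.

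Among the receptors, Ephb4 was at 72.9, 64.6, 69.3, 47.0 and 50.6 CPM in control IgG input and at 155, 127, 126, 73.4 and 77.9 CPM in control IgG IP. In 6-3-A6 libraries it was at 71.6, 56.2, 58.9, 23.6 and 50.0 CPM in input and at 142, 60.3, 105, 129.9 and 113 CPM in IP. It was higher in IP in 10 of 10 tumors, by the least in 6-3-A6 tumor 2 (0.10 on the log2 scale). The fitted log2 fold change was 0.98 (SE 0.19, adjusted p = 0.000357), and 0.91 without the input library that stood apart (adjusted p = 0.000156).

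Ephb2, a receptor of B-class ephrins, was low throughout, at 3.75 to 6.29 CPM in input (median 4.38) and 1.48 to 4.94 CPM in IP (median 2.96). It was lower in IP in all tumors but control IgG tumor 2. Its log2 fold change of -0.55 (SE 0.21, adjusted p = 0.0417) lost its call on leaving out any of 7 of the 10 tumors, with an adjusted p of 0.0615 to 0.0979 in these (control IgG tumors 3, 4 and 5, and 6-3-A6 tumors 1 to 4). It also lost its call without the filter on low counts (adjusted p = 0.126) and in the tumors of the kept libraries alone (adjusted p = 0.0512, edgeR), and kept it without the input library that stood apart (-0.52, adjusted p = 0.0481).

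Epha2 was at 26.7 to 80.1 CPM in input and 48.8 to 105 CPM in IP and was higher in IP in 5 of 10 tumors (log2 fold change 0.15, SE 0.15). Epha4, which binds ephrins of both classes, was at 8.17 to 14.5 CPM in input and 5.48 to 14.6 CPM in IP (log2 fold change -0.27, SE 0.15, adjusted p = 0.154), and it passed without control IgG tumor 2 (-0.39, adjusted p = 0.0492). Ephb3 had the fewest counts, at 0.105 to 5.67 CPM in input and 1.63 to 4.93 CPM in IP (-0.25, SE 0.33). Its lowest value was 1 count, in the input library that stood apart.

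Nr2f2 was at 193, 113, 153, 134 and 129 CPM in control IgG input and at 126, 131, 125, 155 and 110.0 CPM in control IgG IP. In 6-3-A6 libraries it was at 163, 155, 148, 245 and 102 CPM in input and at 145, 158, 121, 130.0 and 135 CPM in IP. The IP values lay within the range of the input values, and 4 of 10 tumors were higher in IP. The log2 fold change was -0.20 (SE 0.13, adjusted p = 0.242), and -0.08 without the input library that stood apart, which had the highest value of all. The 95% interval of -0.47 to 0.08 excludes a rise of the size of Ephb4. Without that library the other genes that did not pass had log2 fold changes of 0.21 (Efnb2), 0.09 (Epha2), -0.13 (Efnb1), -0.20 (Epha4) and -0.35 (Ephb3), again with none called.

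**Figure D1:**
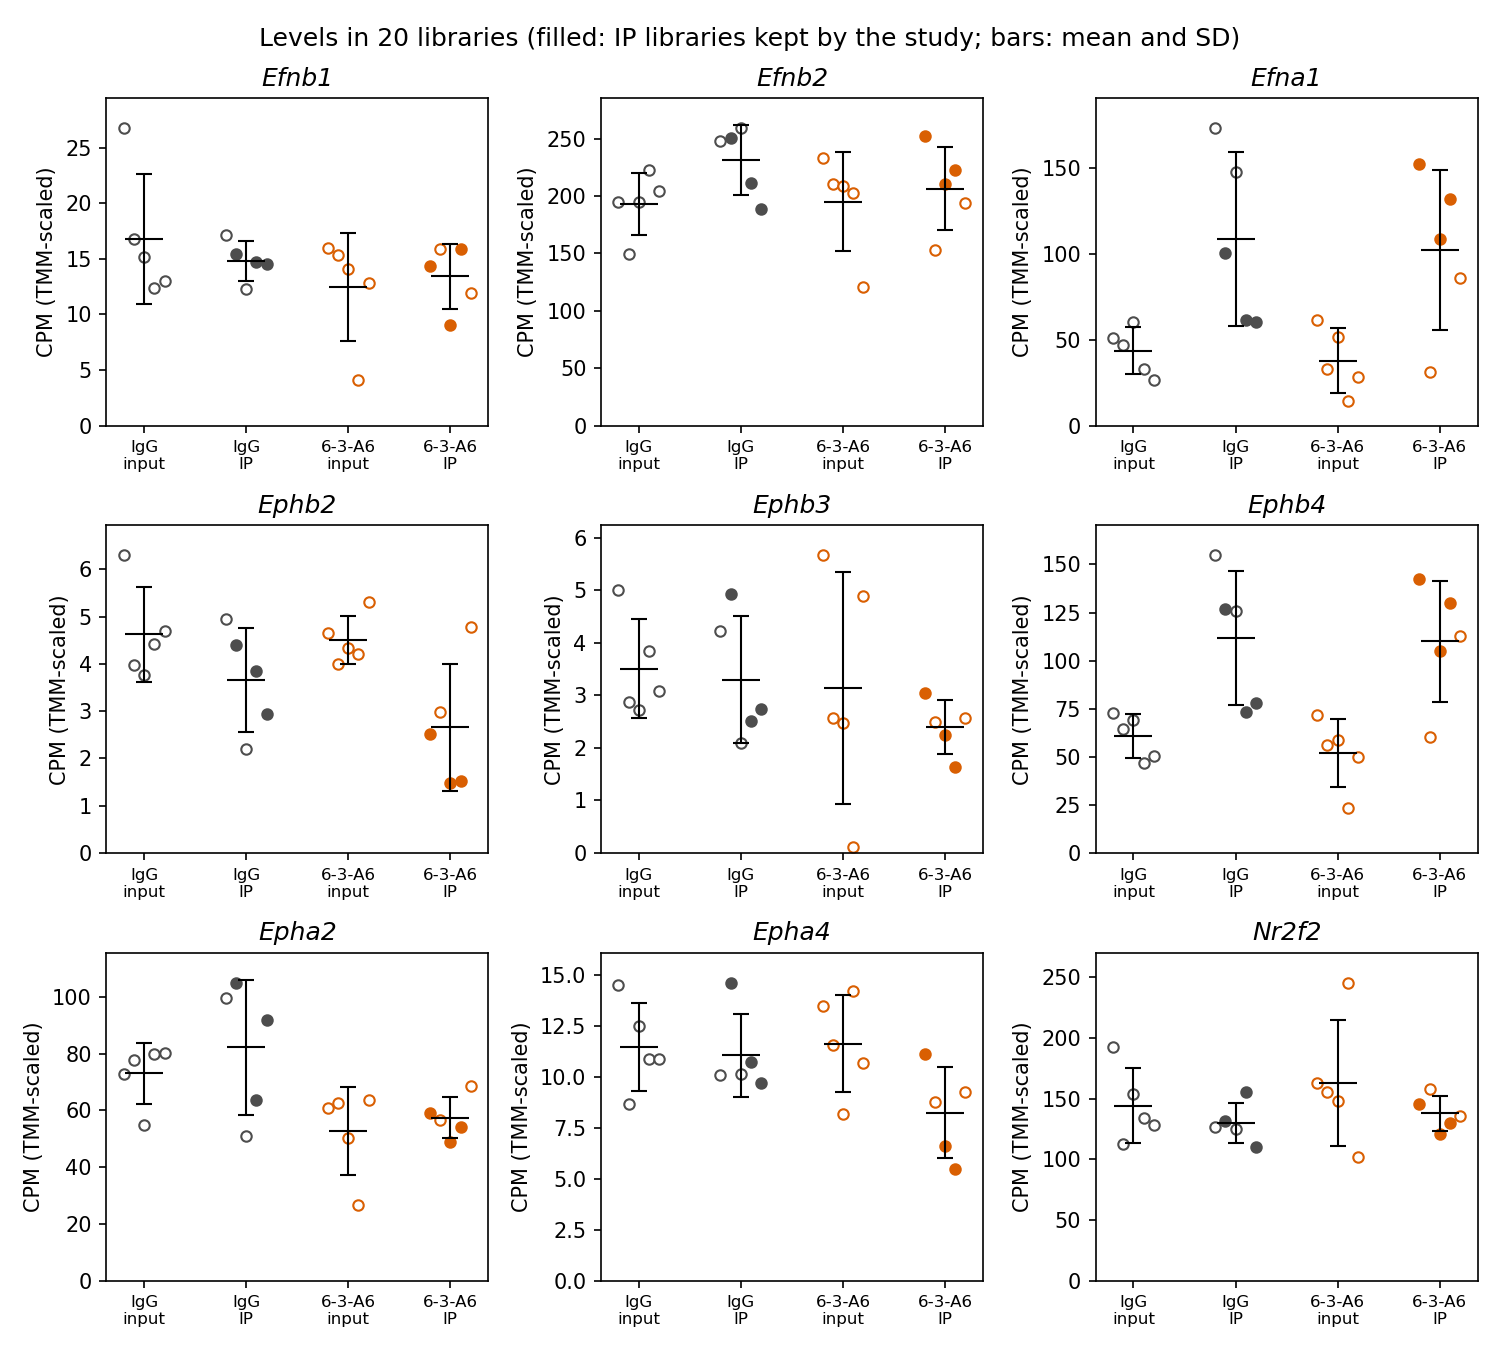
Each panel plots the CPM of 1 gene (TMM-scaled, axis from 0) in the 5 libraries of each group, with the mean and SD as bars and filled points for the 6 IP libraries kept by the study. All 9 genes overlap between fractions, and the input and IP means are 60.9 and 112 CPM for Ephb4, 43.6 and 109 CPM for Efna1 and 193 and 232 CPM for Efnb2 with control IgG, and 52.1 and 110.0 CPM, 37.8 and 102 CPM, and 195 and 207 CPM with 6-3-A6.

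Other genes of the pathway and of vessel identity were read beside them. Of 14 further ephrins and Eph receptors, 12 were tested: Ephb1 rose in IP (log2 fold change 2.56), 7 fell and 4 did not pass. Those that fell included Efna2 (-1.46) and Efna4 (-1.05). Epha6 (-1.75, adjusted p = 0.0405, edgeR) and Epha3 (-1.14, adjusted p = 0.0431) had their highest level in the input library that stood apart (13.5 and 7.04 CPM), and without it neither passed (-0.77, adjusted p = 0.207, and -0.77, adjusted p = 0.114), so that 5 of the 12 fell. Ephb1 was at 0.241 to 0.680 CPM in the other 9 input libraries and at 5.25 CPM in that one, and without it the log2 fold change was 3.27 (adjusted p = 1.07e-08). Of 14 tested signaling partners, 6 rose and 1 fell. Arhgef15, an exchange factor that acts below Eph receptors and is known from EC, rose most (4.01, from 3.68 to 7.38 CPM in input to 41.5 to 175 CPM in IP), followed by the adaptor gene Nck1 (1.25) and the kinase gene Fyn (1.12). The phosphatase gene Acp1 fell by 0.38 on the log2 scale. Of 12 tested arterial genes, 10 rose, with Sox17 (4.63), Sema3g (4.15) and Dll4 (4.00) the highest, and Jag1 (0.12) and Nrp1 (0.30) did not pass. Of 8 venous genes 7 rose, led by Emcn (4.53), which is also among the EC markers, Aplnr (4.39) and Flt4 (4.10), and Nrp2 (0.19) did not pass. The median log2 fold change was 2.69 for the arterial list and 3.37 for the venous list, beside 4.53 for the EC markers. Of the relatives of Nr2f2, Nr2f1 fell by 0.67 on the log2 scale (adjusted p = 0.00333) and Nr2f6 did not pass (0.17). In the same libraries 7 of 12 macrophage markers, 4 of 10 fibroblast markers and 2 of 6 tested epithelial markers fell in IP. Of 10 mural markers Kcnj8 (3.79) and Abcc9 (2.44) rose and 1 fell, and of 5 lymphatic EC markers 2 rose and 1 fell. Without the input library that stood apart, 8 macrophage, 3 fibroblast and 1 epithelial marker fell, and 4 lymphatic EC markers rose and 1 fell. Numbers called among the mural markers, the partners, the arterial, venous and EC genes and the relatives of Nr2f2 were then as before.

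Ratios between Efnb2, Ephb4 and Nr2f2 within a library do not depend on library scale. The log2 ratio of Efnb2 to Ephb4 was 1.81 ± 0.55 in input and 1.02 ± 0.28 in IP (SD, n = 10 tumors), and it was lower in IP in 10 of 10 tumors, by 0.79 ± 0.57. An exact two-sided permutation test that swapped the fractions within a tumor gave p = 0.00195, the smallest this design allows (adjusted p = 0.0117 over 12 ratio tests). The log2 ratio of Ephb4 to Nr2f2 was -1.45 ± 0.70 in input and -0.32 ± 0.53 in IP and was higher in IP in 10 of 10 tumors, by 1.13 ± 0.90 (p = 0.00195, adjusted p = 0.0117, same exact test). As a plain ratio of CPM, Ephb4 stood at 0.0964 to 0.574 of Nr2f2 in input, with the lowest value in the library that stood apart and the next at 0.352, and at 0.381 to 1.22 in IP. The ratio of Efnb2 to Nr2f2 was higher in IP in 8 of 10 tumors, by 0.34 ± 0.49, and did not pass (exact p = 0.0586, adjusted p = 0.234). Without 6-3-A6 tumor 4, whose input stood apart, the differences shrank to -0.62 ± 0.21 for Efnb2 over Ephb4 and to 0.88 ± 0.47 for Ephb4 over Nr2f2 (SD, 9 of 9 tumors in the same direction), each with an exact permutation p = 0.00391, the smallest 9 tumors allow (adjusted p = 0.0234). Efnb2 over Nr2f2 was then 0.26 ± 0.45.

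**Figure D2:**
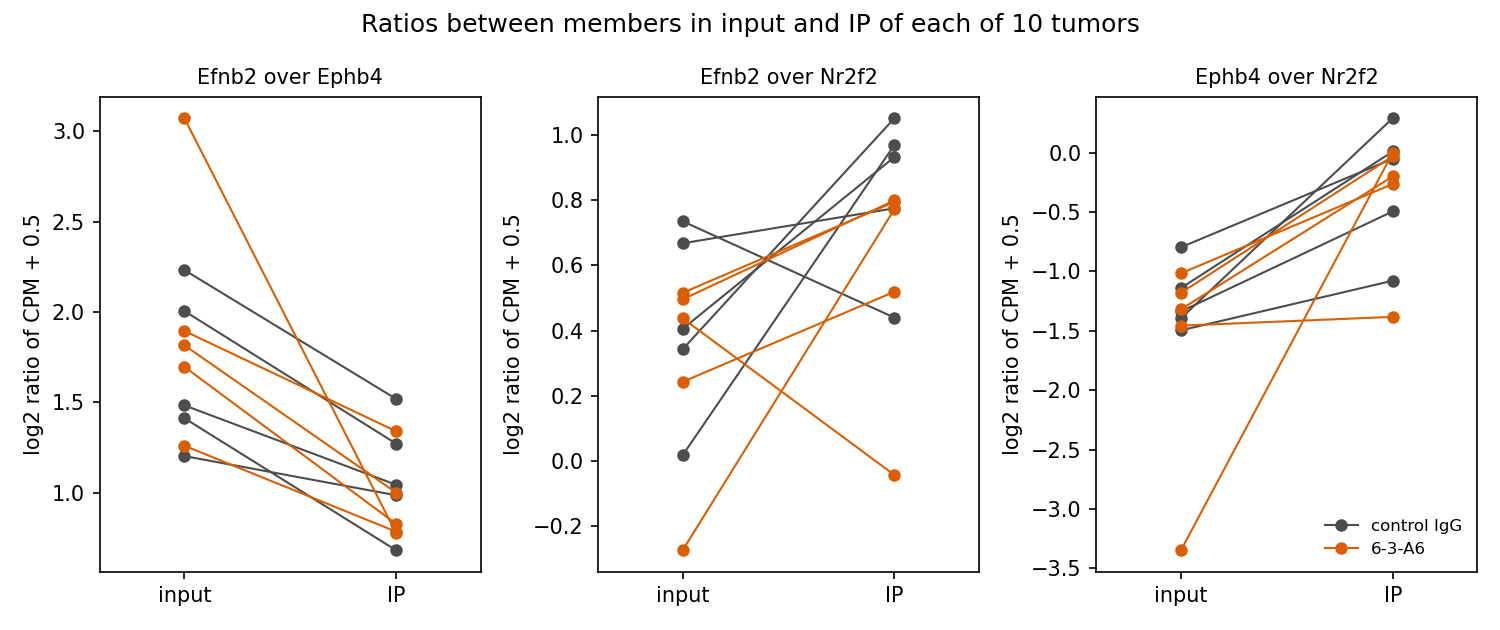
Lines join the input and IP libraries of 1 tumor, with the log2 ratio of CPM + 0.5 on the vertical axis of each panel and the treatment by color. All 10 lines fall for Efnb2 over Ephb4 and all 10 rise for Ephb4 over Nr2f2, while 8 of 10 rise for Efnb2 over Nr2f2.

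The IP libraries differed in their EC content, and the 9 genes did not follow it alike. The mean log2 CPM of the 17 EC markers was 8.13, 7.43, 7.97, 5.86 and 6.66 in control IgG IP and 7.87, 5.58, 7.63, 7.89 and 7.52 in 6-3-A6 IP. Over these 10 libraries, Efna1 (Pearson's r = 0.947, adjusted permutation p = 0.0009, Spearman's rho = 0.939, adjusted p = 0.00652) and Ephb4 (r = 0.957, adjusted p = 0.00135, rho = 0.842, adjusted p = 0.0398) rose with it in both coefficients, by permutation tests adjusted over 45 relations. Without the 2 libraries farthest from the median, 6-3-A6 IP 2 and control IgG IP 4, r was 0.961 for Efna1 and 0.909 for Ephb4. Efnb2 passed in r (0.769, adjusted permutation p = 0.0491) and missed in rho (0.685, adjusted p = 0.159), with r = 0.707 without those libraries. Nr2f2 did not pass (r = -0.517, adjusted permutation p = 0.353, rho = -0.455, adjusted p = 0.430), and its r was 0.588 without the 2 libraries, so that its sign rests on them.

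Fibroblast markers, which the IP still held (summed level 612 to 3640 CPM in control IgG IP and 704 to 3033 CPM in 6-3-A6 IP), moved with other receptors. Ephb2 rose with their mean (r = 0.908, adjusted permutation p = 0.00585, rho = 0.879, adjusted p = 0.0234), and so did Epha2 (r = 0.791, adjusted permutation p = 0.0491, rho = 0.927, adjusted p = 0.00652). On leaving out the pair farthest from the median (replicate 3 of either treatment), r was 0.973 for Ephb2 and 0.700 for Epha2. Ephb3 had its highest r with the mural markers (0.934, adjusted permutation p = 0.00480) and missed in rho (0.794, adjusted p = 0.0685). Past the threshold in r alone were also Epha2 with the mural markers (r = 0.800, adjusted permutation p = 0.0459, rho = 0.685, adjusted p = 0.159) and Ephb2 with the macrophage markers (r = 0.825, adjusted permutation p = 0.0430, rho = 0.770, adjusted p = 0.0749). These points share the library and its scaling factor, each gene and marker list was measured in the same libraries, and other cell types' part in the members' levels was not tested.

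**Figure D3:**
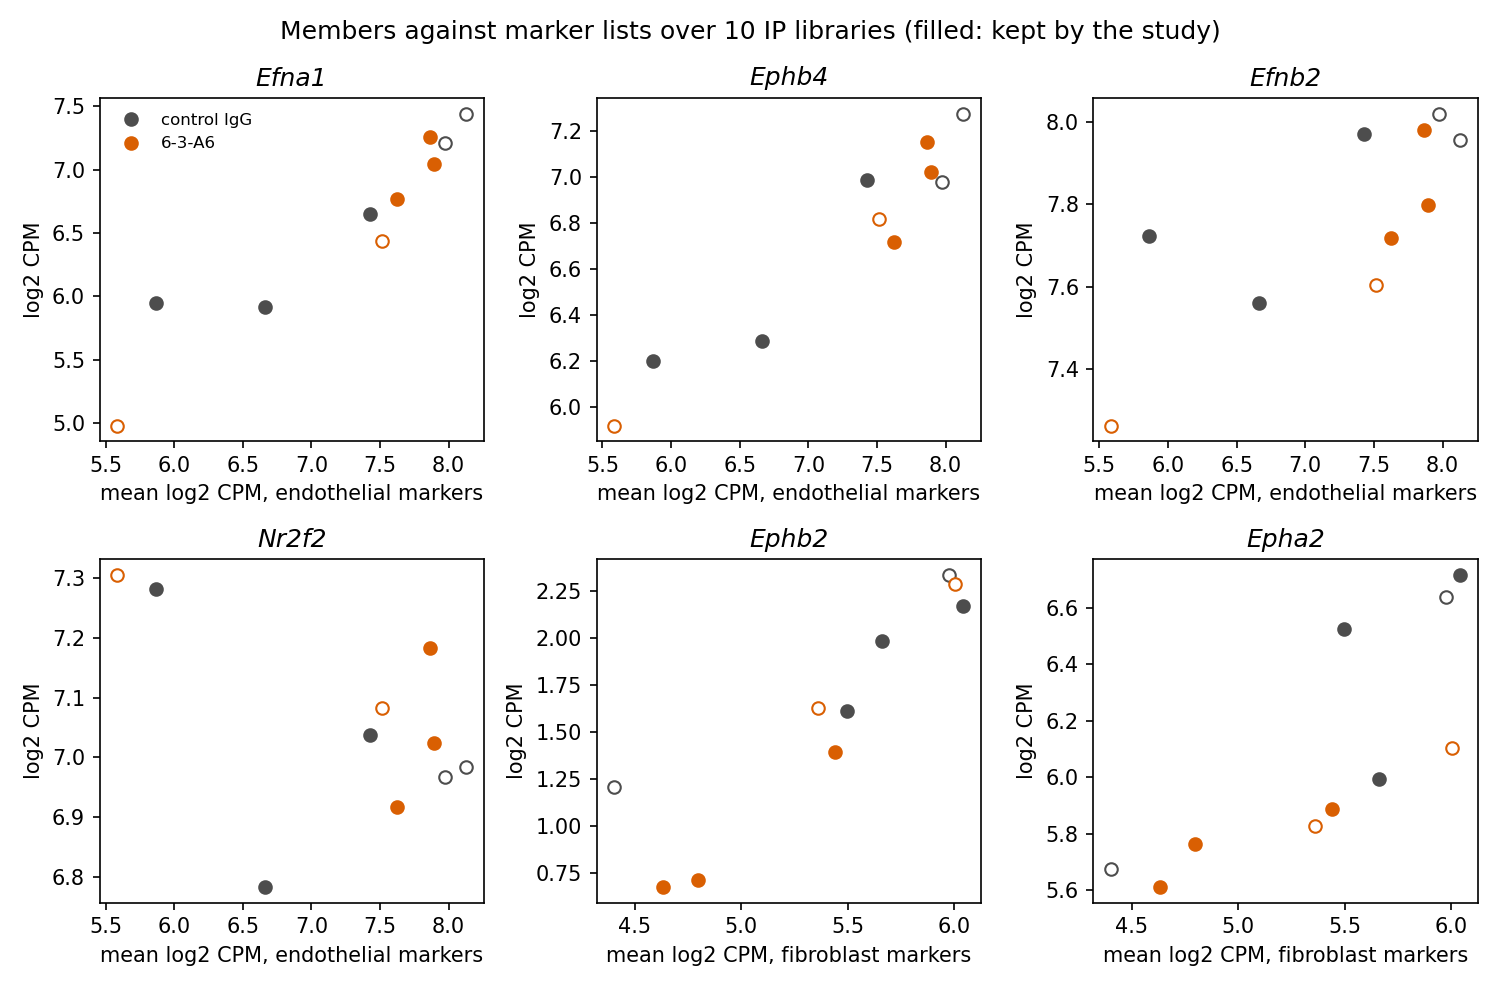
Each point is 1 of the 10 IP libraries, with the mean log2 CPM of the EC or fibroblast markers on the horizontal axis and the log2 CPM of the gene on the vertical axis, and filled points mark the kept libraries. Efna1 and Ephb4 climb with the EC markers, Nr2f2 does not, and Ephb2 and Epha2 climb with the fibroblast markers.

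Among the 36 pairs of the 9 genes, 2 passed in both coefficients over the 10 IP libraries. These were Efna1 with Ephb4 (r = 0.958, adjusted permutation p = 0.00144, rho = 0.903, adjusted p = 0.0266) and Ephb3 with Epha2 (r = 0.834, adjusted permutation p = 0.0187, rho = 0.879, adjusted p = 0.0283). Without the 2 libraries farthest from the median, r was 0.908 for the first pair and 0.520 for the second. Efnb2 passed in r alone with Efna1 (r = 0.899, adjusted permutation p = 0.0155, rho = 0.806, adjusted p = 0.0620) and with its venous receptor Ephb4 (r = 0.852, adjusted permutation p = 0.0184, rho = 0.733, adjusted p = 0.147). Ephb2 with Epha2 passed in rho alone (rho = 0.842, adjusted permutation p = 0.0416, r = 0.744, adjusted p = 0.0748). Nr2f2 had no passing pair. Without the 2 libraries farthest from the median, its r went from -0.329 to 0.737 with Ephb4 and from -0.259 to 0.340 with Efnb2. With Efna1 it stayed negative (-0.393 and -0.547). Of 13601 genes compared over the 10 IP libraries, the 3 most like Ephb4 in log2 CPM were Sparc (r = 0.976), Tie1 (0.976) and Plxnd1 (0.972), where Tie1 is itself an EC marker of the list. The 3 most like Efnb2 were Atp1b2 (0.951), ENSMUSG00000120210 (0.946) and Cyp2j6 (0.942), and those most like Nr2f2 reached only 0.841 (Otx1), 0.819 (Gm17251) and 0.815 (6030442K20Rik). These r are the highest of many and are given as a description.

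The comparison of 6-3-A6 with control IgG asks whether blocking Notch4 changed these transcripts on EC ribosomes. In the 6 kept IP libraries 0 of 9 genes passed, where 4.61% of 13999 genes did (2.57% higher and 2.04% lower with 6-3-A6, edgeR). The count of genes rests on single libraries, and from 646 it went to 9 without 6-3-A6 IP 3, 161 without 6-3-A6 IP 4, 188 without control IgG IP 4 and 345 without 6-3-A6 IP 1. With DESeq2, 1 of the 9 passed, where 8.3% of 14344 genes with an adjusted p did. In edgeR 3 of the 9 had an unadjusted p under 0.05, as did 19.5% of all genes tested. Efna1 was at 100.4, 61.6 and 60.4 CPM in control IgG IP and at 153, 109 and 132 CPM in 6-3-A6 IP, and Epha2 at 105, 63.6 and 92.0 CPM against 59.1, 48.8 and 54.3 CPM. Ephb2 was at 4.39, 3.85 and 2.95 CPM against 2.51, 1.48 and 1.53 CPM. These 3 did not overlap between the groups, as was the case for 24.3% of all genes tested. The log2 fold change was 0.80 for Efna1 (SE 0.24, adjusted p = 0.0901), -0.71 for Epha2 (SE 0.22, adjusted p = 0.0910) and -1.05 for Ephb2 (SE 0.32, adjusted p = 0.0967). Efna1 passed with DESeq2 (0.82, adjusted p = 0.0259), without control IgG IP 2 (1.11, adjusted p = 0.0312) and without the filter on low counts (0.81, adjusted p = 0.0155), and Epha2 passed without that filter (-0.70, adjusted p = 0.0498).

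The arterial and venous pair gave intervals around 0 in the same 6 libraries. Efnb2 was at 251, 211 and 189 CPM with control IgG and at 252, 210.4 and 223 CPM with 6-3-A6 (log2 fold change 0.05, 95% interval -0.39 to 0.49). Nr2f2 was at 131, 155 and 110.0 CPM against 145, 121 and 130.0 CPM (-0.03, interval -0.46 to 0.41). Ephb4 was at 127, 73.4 and 77.9 CPM against 142, 105 and 129.9 CPM (0.41, interval -0.12 to 0.95, adjusted p = 0.388). Epha4 (-0.63), Ephb3 (-0.59) and Efnb1 (-0.22) did not pass. The intervals leave room for changes of a size that this design could not show.

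EC markers differed between the same 6 libraries, and their mean log2 CPM was 5.86 to 7.43 in the kept control IgG libraries and 7.63 to 7.89 in the kept 6-3-A6 libraries, without overlap. All 17 EC markers were higher with 6-3-A6 by fitted value and 5 of them passed, while 6 of 12 macrophage markers and 2 of 10 fibroblast markers fell. The summed fibroblast markers were at 1539 to 3202 CPM with control IgG and at 704 to 1510 CPM with 6-3-A6. The summed macrophage markers were at 6502 to 7631 CPM against 3214 to 3831 CPM, and the summed epithelial markers, of which 2 of 6 tested fell, at 318 to 388 CPM against 168 to 234 CPM. All 4 globin genes had higher fitted values with 6-3-A6 (log2 fold change 3.06 to 3.52) and 3 passed, and they summed to 20.5 to 45.1 CPM against 29.6 to 544 CPM. Among 10 mural markers Kcnj8 rose (2.20, adjusted p = 0.0188, edgeR) and Cspg4 fell (-2.21, adjusted p = 0.0178), and 7 of the 10 had negative log2 fold changes (median -0.56). Their summed level was 207 to 343 CPM against 262 to 401 CPM, while their mean log2 CPM was 3.27 to 3.73 against 2.85 to 3.32. The sum and the mean thus moved in opposite directions, each with overlapping ranges. None of 5 lymphatic EC markers passed, 2 of them with an unadjusted p under 0.05, and their mean log2 CPM was 1.91 to 2.17 against 2.53 to 2.96, without overlap. The part of these cell types in the values of the 9 genes was not tested beyond the EC markers. With the mean of the EC markers as a covariate, the log2 fold change was 0.28 for Efna1, -0.16 for Ephb4 and -0.14 for Efnb2, and -1.23 for Epha2 and -1.23 for Ephb2. In that fit 1 of 13999 genes passed (0.00714%) and 0 of the 9, so the count says nothing about the 9 genes, and the covariate itself separated the 2 treatments without overlap. Of the other lists, Epha3 fell among the further Eph genes (-1.68, adjusted p = 0.0411), Arhgef15 rose among the partners (1.15, adjusted p = 0.0370), and Sox17 (1.56) and Hey1 (1.55) rose among 12 tested arterial genes. In that list 7 had an unadjusted p under 0.05, of which 6 had positive log2 fold changes and Jag1 a negative one (-0.76, adjusted p = 0.0633, edgeR). Over all 10 IP libraries Sox17 was at 0.55 and Hey1 at 0.54, and neither passed. Epha3 and Arhgef15 were not called there either. Epha3 was low, at 0.220 to 1.65 CPM in control IgG IP and 0.316 to 2.21 CPM in 6-3-A6 IP, so that its highest value was with 6-3-A6. Of the 8 venous genes 0 passed in edgeR, where 3 had an unadjusted p under 0.05 (Lrg1 and Emcn with positive log2 fold changes, Nrp2 with a negative one), beside the 19.5% of all genes.

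Over all 10 IP libraries 0 of 13602 genes passed (0% of the background), with 292 genes at an unadjusted p under 0.05 in edgeR and 0 calls in DESeq2. Of the 9 genes only Epha2 was under 0.05 before adjustment. Its log2 fold change was -0.53 (SE 0.21, adjusted p = 1.0, edgeR). Its 5 values were 99.5, 105, 51.0, 63.6 and 92.0 CPM with control IgG and 59.1, 56.7, 48.8, 54.3 and 68.6 CPM with 6-3-A6, and the groups overlapped, as they did for 9 of 9 genes (0.206% of all genes tested did not overlap). Efna1 had a log2 fold change of -0.10 (interval -0.96 to 0.76) and Ephb2 of -0.47 (interval -1.25 to 0.31). Ephb4 (-0.03), Efnb2 (-0.18) and Nr2f2 (0.08) did not pass. The EC marker mean did not separate the groups over 10 libraries, at 7.21 ± 0.95 with control IgG and 7.30 ± 0.97 with 6-3-A6 (n = 5 each).

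In input 0 of 13683 genes passed, with 180 at an unadjusted p under 0.05 in edgeR and 0 calls in DESeq2, and none of the 9 genes was under 0.05. All 9 overlapped between the treatments, where 0.197% of all genes tested did not. The log2 fold changes of the 9 genes ran from -0.48 (Epha2) to 0.16 (Nr2f2). The test of whether the treatment effect differed between IP and input called 0 of 14488 genes, with 125 at an unadjusted p under 0.05 in edgeR and 0 calls in DESeq2, and gave values from -0.44 (Epha4) to 0.28 (Efnb1) for the 9 genes, none of them under 0.05 before adjustment. Within tumors, log2 CPM in IP minus input was 1.25 ± 0.33 for Efna1 with control IgG and 1.42 ± 1.18 with 6-3-A6 (SD, n = 5 each). For Ephb4 it was 0.83 ± 0.20 and 1.11 ± 0.85, and for Nr2f2 -0.14 ± 0.36 and -0.19 ± 0.49. Tumor 4, whose input stood apart, was at the high end of the 6-3-A6 group for Efna1 and Ephb4 and at the low end for Nr2f2. Without it the 6-3-A6 values were 0.98 ± 0.73 for Efna1, 0.77 ± 0.47 for Ephb4 and -0.0043 ± 0.31 for Nr2f2 (n = 4), and for Nr2f2 the spread was then below that of the control IgG tumors. Of 6 tests of the log2 ratios between Efnb2, Ephb4 and Nr2f2 across treatments in the 10 IP and the 10 input libraries, 0 passed (exact permutation tests, unadjusted p from 0.206 to 0.714). In the 10 IP libraries the log2 ratio of Efnb2 to Ephb4 was 0.94 ± 0.24 with 6-3-A6 and 1.10 ± 0.31 with control IgG (n = 5 each, exact permutation p = 0.389, adjusted p = 0.6). In the 6 kept libraries it was 0.87 ± 0.12 and 1.26 ± 0.27 (n = 3 each), and that of Ephb4 to Nr2f2 was -0.08 ± 0.11 and -0.54 ± 0.51. The smallest p that 3 against 3 allows is 0.1, so that no ratio could pass there.

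**Figure D4:**
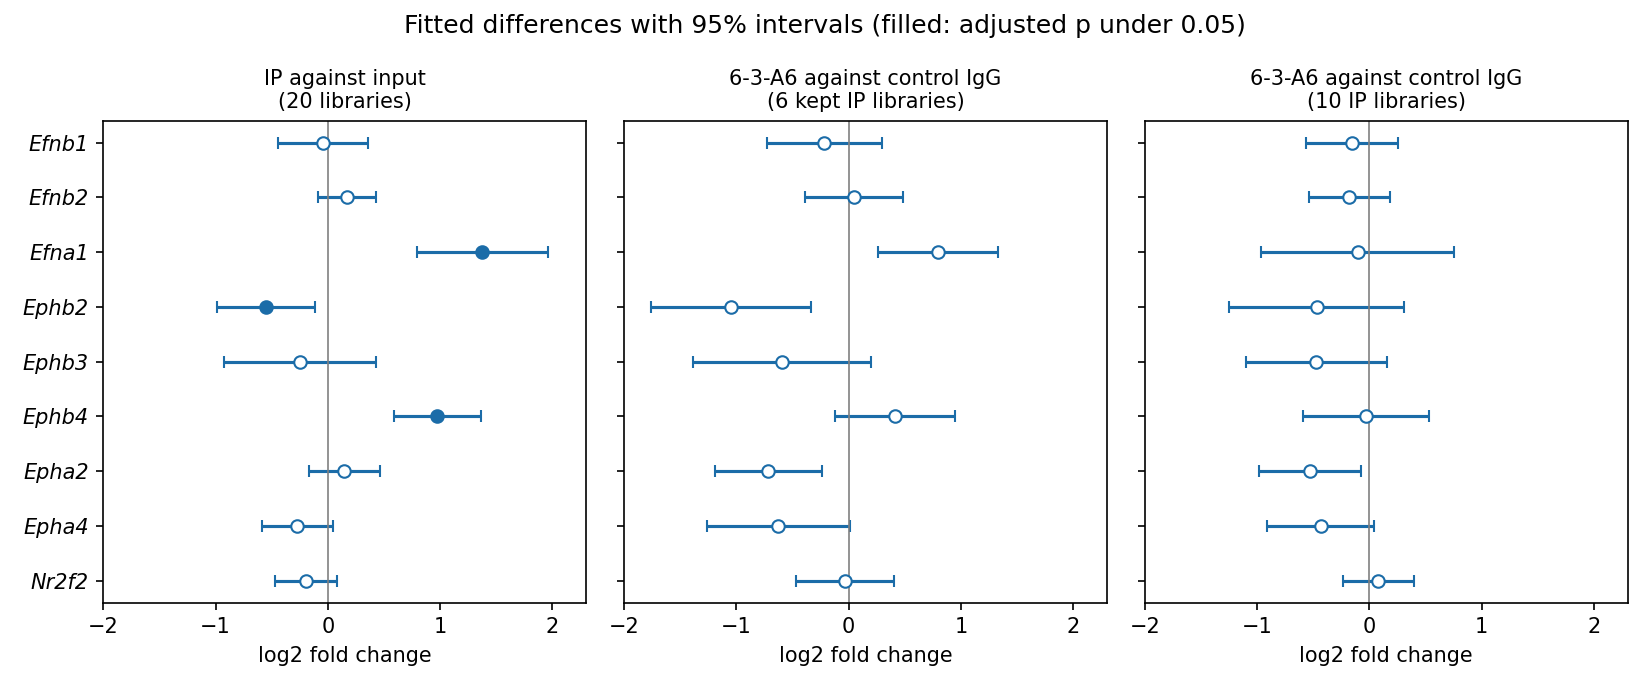
Points are fitted log2 fold changes and bars their 95% intervals for IP against input (left) and for 6-3-A6 against control IgG in the 6 kept (middle) and all 10 IP libraries (right), with filled points for an adjusted p under 0.05 in edgeR. Filled points are seen only for Efna1, Ephb4 and Ephb2 on the left, and Efna1 lies at 0.80 in the middle and at -0.10 on the right.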

How the data were processed

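RNA of 20 libraries (5 per group) was sequenced as single reads. The authors aligned reads with STAR 2.7.4a and counted them with featureCounts 2.0.1 (version 1.5.2 also appears in the submitters' processing notes). The counts deposited by the authors are raw and per gene, and the counted length deposited with them is the whole span. The signal columns of the deposited comparison of 6 IP libraries are the authors' counts divided by size factors, and served only to identify the kept libraries, since each of the 6 was a constant multiple of the IP count column of the same name (all genes, within 1e-06). Columns with the authors' fold changes and p-values were not used. The genome is named as mm10 in the methods, and the coordinates of the table differ from it.

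Differences were tested with edgeR 4.0.16 in R 4.3.3 (quasi-likelihood test after TMM scaling and filterByExpr, with Benjamini-Hochberg adjusted p over all genes tested and a threshold of 0.05), with SE taken as the log2 fold change over the square root of F and intervals from the t quantile of the same test. Log2 CPM used a prior count of 2, and ratios a pseudocount of 0.5. DESeq2 1.42.0 gave an alternative test. Alternatives also covered size factors, the filter, each library or tumor left out, the block, the EC covariate and the tumors of the kept libraries. The numbers in the labels pair IP and input of the same tumor by design (correlation of their deviations from the group means -0.08 to 0.70). Correlations used 100000 permutations in scipy 1.17.1 and were chosen after seeing the data, as was leaving out 1 input library alone. Pipelines were tested on simulated data. Exon lengths came from GENCODE M21. Counts limit the precision of Ephb2 and Ephb3, with totals of 1340 and 1107 over 20 libraries.

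The 9 genes and all lists were chosen with earlier results of these data known. All 9 are named. Genes named from other lists were mostly those with the largest changes among the called, with further genes added after their values were seen. Among the partners in IP against input, Acp1 was named for its fall, while Sdcbp (0.69), Vav3 (0.51) and Adam10 (0.46) also rose and were not named. Within 1 fraction the libraries are separate tumors, so p-values between treatments there measure the spread between tumors. The main fits over 20 libraries hold 2 libraries of each of 10 tumors and treat them as independent. Their p-values therefore ignore the pairing within a tumor, which only the fits with the tumor as a block and the exact ratio tests used.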

Additional observations from a re-analysis of the deposited data

Results flagged for a closer look

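Of 48 groups of 5 values examined (9 genes and 3 log2 ratios in 4 groups), 6 held a value whose gap to the nearest other exceeded 0.71 of the group's range, where chance alone gives about 1 group in 20. In 6-3-A6 input, Efnb1 had a lowest value of 4.10 CPM in replicate 4, the library that stood apart, and the log2 ratio of Ephb4 to Nr2f2 was lowest there too, at -3.35. Efnb2 was lowest in 6-3-A6 input replicate 5, at 120.5 CPM. Epha2 was lowest in control IgG input replicate 3, at 54.8 CPM, and Epha4 was highest in control IgG IP replicate 2, at 14.6 CPM. The log2 ratio of Ephb4 to Nr2f2 was lowest in 6-3-A6 IP replicate 2, at -1.38, the IP library with the lowest mean of EC markers (5.58 log2 CPM).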

How the results depend on the processing

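Of 621 log2 fold changes of the 9 genes under alternatives, 559 kept their direction and their side of the threshold, 9 lost a call, 5 gained one and 48 changed sign, all 48 without a call. For IP against input, 4965 to 6054 genes were called on leaving out a tumor, 3416 in the tumors of the kept libraries and 6465 without the input library of 6-3-A6 tumor 4, which was an alternative chosen after seeing the data. The calls of Efna1 (adjusted p 8e-06 to 0.00635, edgeR or DESeq2) and Ephb4 (4e-06 to 0.00927) held under every alternative run, and that of Ephb2 ran from 0.0104 to 0.126. Efnb1 went from -0.16 to 0.051 on leaving out a tumor and was 0.018 with no filter on low counts, 0.0073 with the tumor as a block and 0.14 in the tumors of the kept libraries. In the 6 kept IP libraries, 646 genes and 0 of the 9 became 1190 genes and 1 of the 9 with DESeq2, 1459 genes and 2 of the 9 with no filter, and 1 gene with the EC marker mean as a covariate, where Efnb2 was -0.14, Ephb4 -0.16 and Nr2f2 0.13. On leaving out 1 of the 6, genes called went from 9 to 653 and those among the 9 from 0 to 1. There Nr2f2 went from -0.14 to 0.13, Efnb2 from -0.034 to 0.20 and Efnb1 from -0.38 to 4.1e-05. In the 10 IP libraries Efna1 went from -0.29 to 0.13 and Ephb4 from -0.14 to 0.12 on leaving out 1 library. In input the same gave -0.075 to 0.14 for Efnb2, -0.074 to 0.10 for Epha4, -0.13 to 0.077 for Ephb2, -0.49 to 0.13 for Ephb3 and -0.023 to 0.29 for Nr2f2, and no filter gave -0.029 for Efnb2 and -0.039 for Epha4. For the difference of the treatment effect between fractions, leaving out a tumor gave -0.19 to 0.033 for Epha2, -0.22 to 0.13 for Nr2f2, -0.00010 to 0.44 for Efnb1, -0.21 to 0.30 for Efna1 and -0.048 to 0.39 for Ephb4. Among the ratios, leaving out 1 library gave -0.31 to 0.14 for Ephb4 over Nr2f2 in 10 IP libraries, -0.065 to 0.18 for Efnb2 over Nr2f2 in 6, and -0.00035 to 0.45 for Efnb2 over Ephb4 in input. The cause of these changes was not tested.

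With exon length in place of span, levels in control IgG IP became 4.29 (Efnb1), 33.8 (Efnb2), 59.5 (Efna1), 0.291 (Ephb2), 0.497 (Ephb3), 24.1 (Ephb4), 17.6 (Epha2), 1.37 (Epha4) and 15.0 (Nr2f2) CPM per kilobase, and these move because the divisor changes.

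With the tumor as a replicate block, 7394 genes and 3 of the 9 were called for IP against input, and the block changed no call of the 9. In the block fit of the difference between fractions Ephb3 was 0.0089 and Epha2 0.041. Replicate numbers do not pair treatments (correlations of deviations from -0.33 to 0.37), and a block on them called 0 genes in the 10 IP and in the 10 input libraries, with Efnb2 at -0.020 in input. No block on replicate number was run for the 6 kept libraries, whose groups share only replicate 4.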
